A study of Homo sapiens with 12 samples.

Results

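The genes described here encode the building blocks of microtubules and 2 proteins that act on free tubulin in opposite directions. They are the α-tubulins TUBA1A, TUBA1B, TUBA1C and TUBA4A, the β-tubulins TUBB, TUBB2A, TUBB4B and TUBB6, the tubulin-sequestering protein stathmin (STMN1) and the tubulin polymerization promoting protein TPPP. The members were taken by gene symbol from the deposited gene table, and all 10 were found among its 59276 symbols. RNA came from JJN3, a human multiple myeloma cell line, in 4 groups of 3 replicates each. DMSO and MS023 samples were JJN3 cells given the solvent DMSO or, for 3 days, 10 µM MS023, an inhibitor of the type I protein arginine methyltransferases, of which PRMT1 is the main member. The isgCtrl and PRMT1-KO samples (iPRMT1 in the labels) were JJN3 cells that expressed Cas9 with the reporter mCherry and carried a doxycycline-inducible control guide or PRMT1 guide. By the study's results text, doxycycline induction of PRMT1-KO cells for RNA sequencing lasted 3 days. By its methods guide-carrying cells were selected with puromycin, with no cloning step described. For DMSO and isgCtrl samples 3 days are also listed, but the study's text gives no duration for them. It does not say in particular whether isgCtrl cells received doxycycline. The study's methods speak in general of independent experiments, but neither they nor the labels say that these RNA replicates were separate cultures. The p-values measure the spread between these samples, which may be technical.

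α- and β-tubulin form a dimer that adds to and leaves the ends of microtubules. Cells build these dimers from several near-identical gene products called isotypes, and dividing cells need large amounts of them for the mitotic spindle. Stathmin binds free dimers and destabilizes microtubules, is switched off by phosphorylation in mitosis and is abundant in many proliferating cells, while TPPP binds and bundles microtubules and is best known from oligodendrocytes. Tubulin mRNAs are also controlled by the amount of free tubulin: TTC5 recognizes the first residues of a tubulin chain as it leaves the ribosome and directs decay of its mRNA.

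The start of the coding sequence is shown for the 8 tubulins because this is the stretch that TTC5 reads and because it shows how alike the isotypes are. The sequences are the first 36 bases of the coding sequence of each gene's reference transcript in GENCODE v44 (GRCh38), with the first 12 bases, which encode the residues recognized by TTC5, in capitals.
TUBA1A: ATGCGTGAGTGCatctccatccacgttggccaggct
TUBA1B: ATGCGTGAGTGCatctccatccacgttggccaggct
TUBA1C: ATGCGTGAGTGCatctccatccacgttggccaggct
TUBA4A: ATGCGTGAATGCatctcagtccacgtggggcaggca
TUBB: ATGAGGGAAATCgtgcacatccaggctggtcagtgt
TUBB2A: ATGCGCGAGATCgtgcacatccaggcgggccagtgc
TUBB4B: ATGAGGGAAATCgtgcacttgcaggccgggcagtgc
TUBB6: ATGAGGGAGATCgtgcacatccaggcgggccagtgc

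TUBA1A, TUBA1B and TUBA1C did not differ over these 36 bases, and TUBA4A had 6 mismatches to them. TUBB2A had 6, TUBB4B 5 and TUBB6 4 mismatches to TUBB. Over the whole coding sequence TUBA1A was 97.2% identical to TUBA1B, and TUBB was 84.6% identical to TUBB2A and 84.4% identical to TUBB4B. The likeness limits how firmly reads can be given to one gene. Of the 31-base words of the reference transcript, 72.2% in TUBA1B, 59.3% in TUBA1A, 37.7% in TUBA1C and 33.5% in TUBB also occurred in transcripts of other genes. In TUBB2A the share was 69.0%, and 62.9% of its words occurred in TUBB2B, many of them in further genes too. The share was 20.7% in TUBB4B, 12.6% in TUBA4A and 6.8% in TUBB6, but 0.6% in STMN1 and 1.1% in TPPP, so the levels of the last pair are the least exposed to this uncertainty.

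In STMN1 a stretch upstream of the start site is shown because it was the one member whose promoter window held an E2F word. It lies from 90 to 31 bases before the RefSeq start site on the minus strand of chromosome 1, at chr1:25906450-25906509 of GRCh38.p14. Of its 60 bases 17 lie in exons annotated in GENCODE v44. Capitals mark the CCAAT word that NF-Y is known to bind and the word TTTGGCGC that E2F factors are known to bind.
STMN1: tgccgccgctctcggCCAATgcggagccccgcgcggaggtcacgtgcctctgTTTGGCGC

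RefSeq promoter windows of 250 bases before to 50 bases after the start site were searched on both strands for 6 words. TTTGGCGC was in STMN1 only, and in 0.7% of all 35116 windows. TTTCGCGC, TTTCCCGC and TTTAAA were in 0 member windows and in 0.5%, 1.6% and 12.2% of all windows. CCAAT was in the windows of 7 members (TUBA1A, TUBA1C, TUBB, TUBB4B, TUBB6, STMN1 and TPPP) and in 34.6% of all windows. TTTGAA, a form of the cell cycle homology region, was in TUBA1C and TUBB4B and in 15.2% of all windows. These matches describe letters and not binding.

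TPM is a share of transcripts scaled by transcript length, so levels of different genes can be set side by side. TUBA1B was the most abundant member in every group and ranked at position 128 of all 59276 symbols in DMSO, followed by TUBB at 159 and STMN1 at 265. In DMSO cells the order of mean TPM was TUBA1B (1407), TUBB (972), STMN1 (521), TUBA1C (256), TUBB4B (222), TUBA4A (166), TUBA1A (52.9), TUBB2A (20.9), TPPP (8.28) and TUBB6 (2.87), and no neighbours in this order overlapped in their samples. The isgCtrl and PRMT1-KO cells had the same order. With MS023 stathmin fell below TUBA1C in the order, and TPPP and TUBB6 overlapped at the bottom of it.

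**Figure D1:**
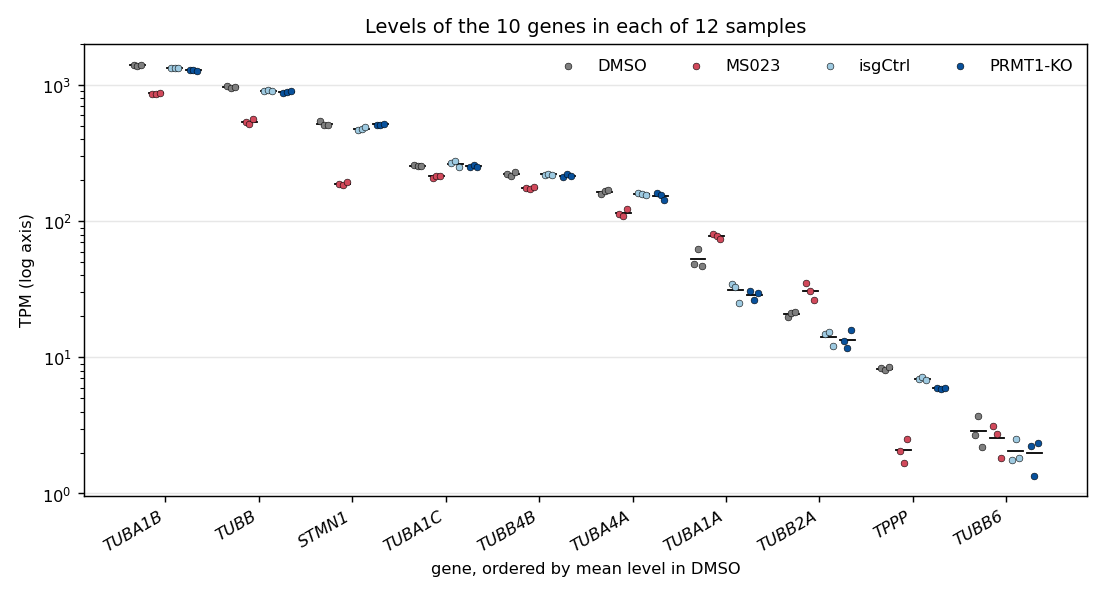
TPM of the 10 genes in each of 12 samples on a log axis. Points are samples, horizontal lines are means of 3, and genes are ordered by their mean in DMSO. The MS023 points lie below the other groups for TUBA1B, TUBB, STMN1 and TPPP and above them for TUBA1A and TUBB2A.

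Across the series, Pearson's r over genes between replicates of a group was 0.9933 to 0.9957. PRMT1 itself was at 866.6, 863 and 849 TPM in the isgCtrl samples and at 302, 309 and 301 TPM in the PRMT1-KO samples (log2 fold change -1.497, limma, Benjamini-Hochberg adjusted p = 7.2e-04). With MS023 it was at 664, 700.0 and 656 TPM, against 634, 657 and 669.6 TPM in DMSO. The 6 plasma cell markers of the list had means above 0 in all groups. SLAMF7, however, had means of only 0.369 TPM in isgCtrl and 0.463 TPM in PRMT1-KO, too low to be tested between them. Summed levels of the list were 608 to 1018 TPM. The summed B cell, T cell and myeloid markers stayed at or under 3.00 TPM in every sample. MBP, a myelin gene of oligodendrocytes, had group means of 8.88 to 12.7 TPM and was not called in either comparison. Its part in the levels of TPPP and TUBA1A was not tested. Read depth is unknown, since TPM sum to the same total in each sample.

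MS023 was compared with DMSO to see what inhibition of the enzyme family did to these genes. Tests used log2(TPM+1) in limma over 12903 genes, and a gene was called if its adjusted p (Benjamini-Hochberg) was below 0.05 and its log2 fold change was beyond 0.48 in either direction. Of the 10 members, 5 were called lower with MS023 (TUBA1B, TUBA4A, TUBB, STMN1 and TPPP) and 2 were called higher (TUBA1A and TUBB2A). Of all genes tested 19.3% were called lower and 11.6% higher. For 9 of the 10 members all MS023 samples lay outside the DMSO range, against 59.5% of all genes tested. The median log2 fold change of the members was -0.43, and that of all genes tested was -0.11. Scaling the samples by median ratios moved the latter to 0.00 and turned the split of all calls from 1500 higher and 2486 lower to 2012 higher and 1882 lower. The split was 1923 and 1918 after quantile normalization.

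STMN1 and TPPP had the lowest log2 fold changes of the members. STMN1 mRNA was at 543, 510.4 and 509.9 TPM in the DMSO samples and at 187, 184 and 194 TPM in the MS023 samples. The groups were far apart, and the MS023 mean was 36.1% of the DMSO mean. The log2 change was -1.46 (standard error, SE, 0.06, limma, Benjamini-Hochberg adjusted p = 6.6e-05), and over all alternatives it lay between -1.49 and -1.34. The gene lies on the minus strand of chromosome 1 from 25884181 to 25906991 (GRCh38).

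TPPP, a low gene, had 8.33, 8.03 and 8.49 TPM in DMSO and 2.04, 1.69 and 2.50 TPM with MS023. All MS023 samples were below all DMSO samples, with a mean of 25.1% of the control. The log2 fold change of -1.60 (standard error 0.11, limma, Benjamini-Hochberg adjusted p = 1.8e-04) is on the log2(TPM+1) scale, which understates changes of low genes, and was -1.96 with 0.1 in place of 1 added. TPPP lies on the minus strand of chromosome 5 from 659862 to 693352 and shares 404 exonic bases with CEP72 on the other strand. Strand use in the counting is not given in the sources used here, and CEP72 was not called (log2 fold change -0.23, limma, Benjamini-Hochberg adjusted p = 0.182).

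Stathmin is known to sequester tubulin and TPPP to promote its assembly, and the mRNAs of both were lower with MS023. Proliferation markers moved with them. All 6 of them (MKI67, TOP2A, PCNA, MCM2, CCNB1 and CCNA2) were called lower with MS023, against 19.3% of all genes tested. Their median log2 fold change was -1.11, against -0.11 for all genes tested. Their summed level was 733 to 744 TPM in DMSO and 343 to 347 TPM with MS023. Their part in the results for the tubulins, STMN1 and TPPP was not tested. In bulk RNA, fewer cells of one state and less RNA per cell cannot be told apart.

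Among the α-tubulins TUBA1B, the main ubiquitous isotype, was at 1420.0, 1387 and 1415 TPM in DMSO and at 869.7, 868 and 872 TPM with MS023. The spread within each group was small beside this gap, with a standard deviation of 17.7 TPM in DMSO and 2.37 TPM with MS023. The log2 fold change was -0.69 (SE 0.06, limma, Benjamini-Hochberg adjusted p = 3.2e-04). TUBA4A, whose gene does not encode the C-terminal tyrosine of the other α-tubulins, was at 159, 168 and 170.1 TPM in DMSO and at 114, 109 and 122 TPM with MS023. These samples did not overlap, and the log2 fold change was -0.52 (limma, Benjamini-Hochberg adjusted p = 0.00207). TUBA4A fell short of the fold threshold under median-ratio scaling (-0.40) and quantile normalization (-0.47).

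TUBA1C was at 260.4, 255 and 253 TPM in DMSO and at 209, 217 and 215 TPM with MS023. Its samples did not overlap either, but the log2 fold change of -0.26 (limma, Benjamini-Hochberg adjusted p = 0.0113) was under the fold threshold. TUBA1A, an isotype best known from neurons, went the other way, with 48.7, 62.9 and 47.2 TPM in DMSO and 80.8, 77.9 and 74.3 TPM with MS023. All MS023 samples were above the DMSO samples, and the log2 fold change was 0.56 (SE 0.12, limma, Benjamini-Hochberg adjusted p = 0.0113). TUBA1A, TUBA1B and TUBA1C lie together on chromosome 12, from 49127782 to 49274600 (GRCh38). TUBA1A and TUBA1C share 345 exonic bases on opposite strands, and TUBA1B shares 1571 with the antisense gene TUBA1B-AS1, so reads there cannot be told apart without strand. The sum of TUBA1A, TUBA1B and TUBA1C was 1705 to 1729 TPM in DMSO and 1160 to 1162 TPM with MS023. This sum still depends in part on how reads were split among the genes. TPM is scaled by length, and the reference transcripts have 1672 (TUBA1A), 1627 (TUBA1B) and 2823 (TUBA1C) bases. The pseudogene TUBAP2, which shares 35.9% of the TUBA1B words, had means of 1.81 TPM in DMSO and 1.63 TPM with MS023.

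TUBB, the main β-tubulin, was at 984, 955 and 978 TPM in DMSO and at 534, 519 and 562 TPM with MS023. The groups did not overlap, and the log2 fold change of -0.85 (standard error 0.06, limma, Benjamini-Hochberg adjusted p = 2.4e-04) was the lowest among the tubulin members. TUBB4B, another widely expressed β-tubulin, was at 222, 215 and 229.6 TPM in DMSO and at 176, 172 and 178 TPM with MS023. This difference of -0.34 (limma, Benjamini-Hochberg adjusted p = 0.00530) did not reach the fold threshold, although no samples overlapped. The pseudogene TUBBP1, which shares 28.8% of the words of TUBB, was at 0.201 TPM in DMSO.

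TUBB2A was at 19.7, 21.3 and 21.6 TPM in DMSO and at 35.03, 30.96 and 26.6 TPM with MS023. Every MS023 sample was higher, and the log2 fold change was 0.53 (SE 0.11, limma, Benjamini-Hochberg adjusted p = 0.00926). Without MS023 replicate 1 it was 0.44, and the gene was no longer called. Its near-identical neighbour TUBB2B had means of 14.9 TPM in DMSO and 12.1 TPM with MS023 and was not called (limma, Benjamini-Hochberg adjusted p = 0.146). The sum of TUBB2A and TUBB2B was 32.2 to 37.8 TPM in DMSO and 38.1 to 49.1 TPM with MS023, so the groups did not overlap in the sum. TUBB6 was low and varied between replicates, with 2.69, 3.74 and 2.18 TPM in DMSO and 3.11, 2.74 and 1.83 TPM with MS023. It overlapped between groups, with a 95% confidence interval of the log2 fold change from -0.60 to 0.36.

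**Figure D2:**
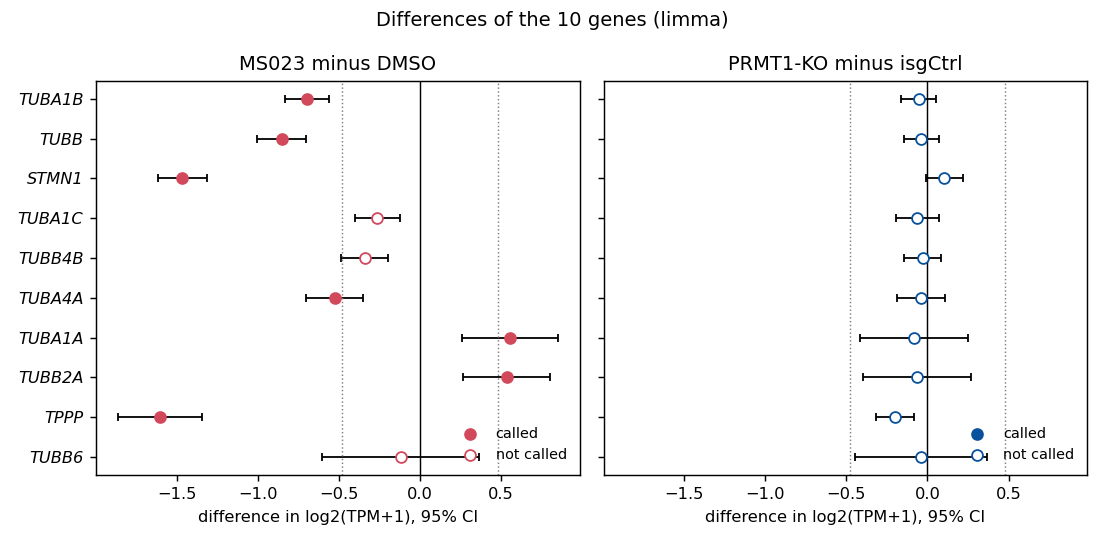
Differences in log2(TPM+1) of the 10 genes for MS023 minus DMSO (left) and PRMT1-KO minus isgCtrl (right). Bars are 95% confidence intervals from limma, filled points are called, and dotted lines mark the fold threshold of 0.48. With MS023, 5 filled points lie to the left and 2 to the right, and with PRMT1-KO there are 0.

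The isotypes therefore changed unequally, and their make-up was compared by pooling. The 4 α-tubulins summed to 1888, 1873 and 1886 TPM in DMSO and to 1273, 1271 and 1284 TPM with MS023. The 4 β-tubulins summed to 1229, 1195 and 1231 TPM in DMSO and to 748, 725 and 768 TPM with MS023. Both sums were lower in 3 of 3 samples, by -0.56 and -0.71 on the log2 scale (two-sided exact permutation test, p = 0.1 each, the smallest that 3 against 3 samples allow). There were 1.55 ± 0.02 α-tubulin transcripts per β-tubulin transcript in DMSO, against 1.71 ± 0.04 with MS023 (SD, n = 3 each), and these samples did not overlap.

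Within α-tubulin, TUBA1B made up 74.8% ± 0.63 in DMSO against 68.2% ± 0.19 under MS023, where ± is the SD of 3 samples here and for the shares that follow. The share of TUBA1A went from 2.81% ± 0.47 to 6.09% ± 0.28, and that of TUBA1C from 13.6% ± 0.18 to 16.7% ± 0.31. TUBA4A kept overlapping shares of 8.80% ± 0.34 and 9.004% ± 0.49. Thus the most abundant isotype had a smaller share, and TUBA1A and TUBA1C had larger ones. Within β-tubulin, TUBB made up 79.8% ± 0.35 in DMSO and 72.0% ± 0.96 with MS023. TUBB4B went from 18.2% ± 0.36 to 23.5% ± 0.32 and TUBB2A from 1.71% ± 0.10 to 4.14% ± 0.62, while the shares of TUBB6 overlapped (0.236% ± 0.070 and 0.344% ± 0.093). Of the 8 shares, 6 did not overlap between DMSO and MS023, each with p = 0.1 in a two-sided exact permutation test. A share within a sample shows unequal change and not which isotype moved.

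**Figure D3:**
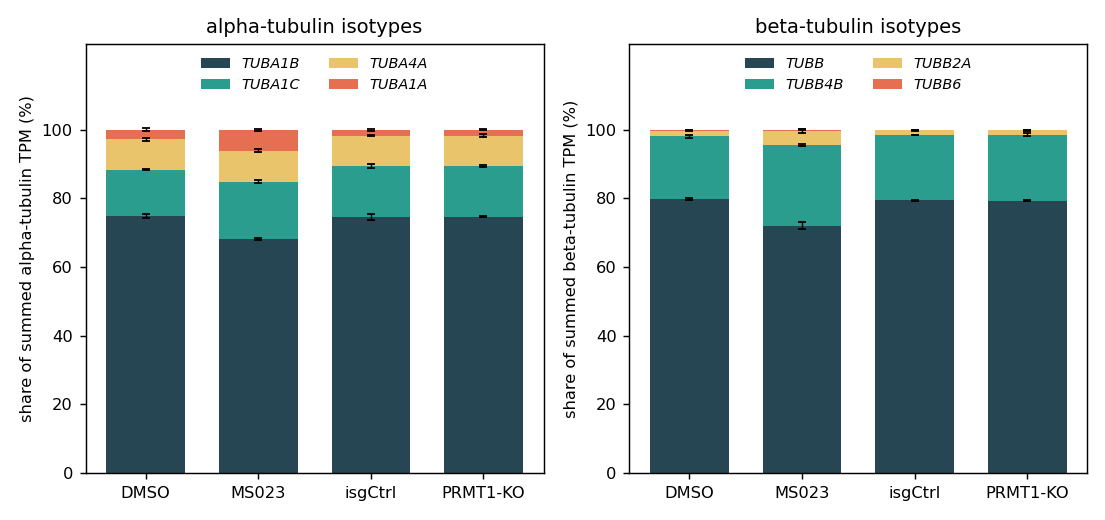
Mean share of each isotype in the summed TPM of α-tubulin (left) and β-tubulin (right) in the 4 groups, in percent, stacked to 100. Error bars are the SD of 3 samples of the share whose upper edge they sit on. TUBA1B takes 74.6% to 74.8% in DMSO, isgCtrl and PRMT1-KO and 68.2% with MS023, and TUBB 79.3% to 79.8% and 72.0%.

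Stathmin fell further than tubulin. DMSO samples had 17.4, 16.6 and 16.4 STMN1 transcripts per 100 transcripts of the 8 tubulins, and MS023 samples had 9.27, 9.19 and 9.45. The difference was -0.85 on the log2 scale, with no overlap (two-sided exact permutation test, p = 0.1). In isgCtrl there were 16.0, 16.2 and 16.8 per 100 and in PRMT1-KO 18.1, 17.9 and 18.4, which did not overlap either, in the opposite direction to MS023 and by 0.15 on the log2 scale (two-sided exact permutation test, p = 0.1).

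**Figure D4:**
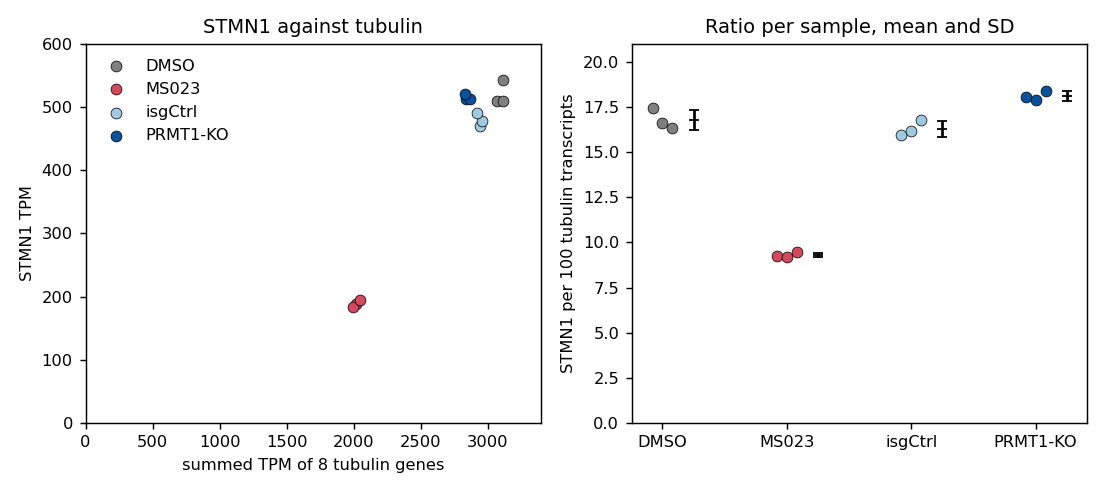
Left, TPM of STMN1 against the summed TPM of the 8 tubulin genes in each of 12 samples. Right, STMN1 transcripts per 100 tubulin transcripts per sample, with mean and SD of 3 at the side. The MS023 samples sit apart at 9.19 to 9.45, and the PRMT1-KO samples at 17.9 to 18.4.

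PRMT1-KO was compared with isgCtrl to ask whether loss of the enzyme by gene editing had like effects on these genes. Of the 10 members 0 were called in either direction, and 0.781% of the 12285 genes tested were called (51 higher and 45 lower, which became 67 and 31 under median-ratio scaling). At an unadjusted p under 0.05 in limma there was 1 member, TPPP, and 18.6% of all genes tested. TPPP was at 6.95, 7.22 and 6.81 TPM in isgCtrl and at 6.01, 5.90 and 5.96 TPM in PRMT1-KO. The samples did not overlap, and the log2 difference was -0.20 with a 95% confidence interval from -0.32 to -0.09 (limma, Benjamini-Hochberg adjusted p = 0.117).

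STMN1 was at 469, 478 and 491 TPM in isgCtrl and at 513, 512 and 521 TPM in PRMT1-KO. Its difference was positive, 0.10 with a confidence interval from -0.01 to 0.22 (limma, Benjamini-Hochberg adjusted p = 0.295), and its samples did not overlap. TUBA1B had 1329, 1334 and 1339 TPM in isgCtrl and 1293, 1298 and 1267 TPM in PRMT1-KO, and TUBB had 912, 918 and 915 against 877, 892 and 903 TPM. Both were slightly lower without overlap, by -0.05 and -0.04 on the log2 scale, and neither was called. Under median-ratio scaling TUBA4A, TUBB and TUBB4B were also just above 0, at 0.00157, 0.00305 and 0.0135. Samples did not overlap for 4 members (TUBA1B, TUBB, STMN1 and TPPP) and for 26.7% of all genes tested.

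The other members overlapped between isgCtrl and PRMT1-KO. TUBA1C ranged from 252 to 276 TPM in isgCtrl and from 251 to 258 TPM in PRMT1-KO, TUBA4A from 156 to 161 and from 144 to 162 TPM, and TUBB4B from 220.4 to 222 and from 212 to 222 TPM. TUBA1A was at 34.8, 33.2 and 25.1 TPM in isgCtrl and 30.7, 26.5 and 29.7 TPM in PRMT1-KO. TUBB2A was at 14.9, 15.4 and 12.2 TPM in isgCtrl and 13.2, 11.6 and 15.8 TPM in PRMT1-KO, and TUBB6 stayed between 1.35 and 2.51 TPM in both groups. The confidence intervals of the log2 differences were widest for TUBB6 (-0.45 to 0.37), TUBA1A (-0.42 to 0.25) and TUBB2A (-0.40 to 0.27). True differences within these ranges are compatible with the data. The α-tubulins summed to 1772 to 1802 TPM in isgCtrl and 1693 to 1740.2 TPM in PRMT1-KO, and the β-tubulins to 1149 to 1158 and 1104 to 1137 TPM. Neither sum overlapped, at log2 differences of -0.05 and -0.04 (two-sided exact permutation test, p = 0.1 each), but under median-ratio scaling the latter was 0.005. All 8 isotype shares overlapped, with TUBA1B at 74.6% of α-tubulin in both groups and TUBB at 79.4% and 79.3% of β-tubulin. The proliferation markers summed to 734 to 759 TPM in isgCtrl and 725 to 754 TPM in PRMT1-KO, and 0 of 6 were called. Of all genes tested, only 0.781% were called in this comparison.

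Whether the effect of MS023 differed from that of PRMT1-KO was tested in one limma fit of all 12 samples, over 13256 genes. The difference of effects was called for 7 of 10 members, while 24.4% of all genes tested were called. STMN1 had a difference of -1.57 (standard error 0.07, limma, Benjamini-Hochberg adjusted p = 3.7e-07), with effects of -1.46 and 0.10 side by side. TPPP had a difference of -1.40 (adjusted p = 1.5e-05), TUBB of -0.81 (adjusted p = 1.1e-05) and TUBA1B of -0.64 (adjusted p = 2.3e-05) in the same limma fit with Benjamini-Hochberg adjustment. The differences of TUBA4A (-0.48), TUBA1A (0.64) and TUBB2A (0.60) were also called but lay near the thresholds. The call of TUBA1A was lost without DMSO replicate 1 or 3, MS023 replicate 1, isgCtrl replicate 1 or 2 or PRMT1-KO replicate 2 (0.55 to 0.61). That of TUBA4A was lost without DMSO replicate 2 or 3, MS023 replicate 1 or 2, isgCtrl replicate 3 or PRMT1-KO replicate 1 or 2 (-0.48 to -0.45). That of TUBB2A was lost without DMSO replicate 1, MS023 replicate 1 or 2, isgCtrl replicate 1 or 2 or PRMT1-KO replicate 1 or 2 (0.50 to 0.59). TUBA1C (-0.20, adjusted p = 0.0428) and TUBB4B (-0.31, adjusted p = 0.00414) passed the Benjamini-Hochberg adjusted limma test but not the fold threshold. The controls of the comparisons differ, since DMSO samples had no Cas9 or guide.

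That difference between controls was visible in the members. TUBA1A was at 25.1 to 34.8 TPM in isgCtrl, below the 47.2 to 62.9 TPM of DMSO, and TUBB2A at 12.2 to 15.4 TPM, below 19.7 to 21.6 TPM. The isgCtrl mean was 58.6% of the DMSO mean for TUBA1A and 67.9% for TUBB2A, but 94.8% for TUBA1B, 94.1% for TUBB and 92.0% for STMN1. Cas9, the guide, any doxycycline and solvent cannot be told apart here, and no test was made.

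The wider tubulin pathway was described by lists of genes ordered by role. Of 15 other tubulin genes 7 were tested with MS023. TUBD1 and TUBE1, the δ- and ε-tubulins of centrioles, fell, with log2 fold changes of -1.13 and -0.61, and TUBG1, the γ-tubulin that nucleates microtubules, was at -0.01. The remaining β-tubulins tested, TUBB2B, TUBB3 and TUBB4A, were not called. Among 4 tested paralogs of stathmin and TPPP, TPPP3 fell by 1.18 on the log2 scale and STMN3, a neuronal stathmin, rose by 0.61. STMN2 (-0.73, limma, Benjamini-Hochberg adjusted p = 0.0512) and STMN4 (-0.03) were not called. TPPP3 spread widely in DMSO, from 2.97 to 9.07 TPM.

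Tubulin chains are folded by prefoldin, the CCT chaperonin and the tubulin cofactors. Of 21 such genes 3 were called lower and 0 higher with MS023, where 19.3% of all genes tested were called lower. Without the fold threshold 13 had a lower and 1 a higher level at a Benjamini-Hochberg adjusted limma p under 0.05. Of all 12903 genes tested, 3922 were lower and 2378 higher by this measure. TBCD, a cofactor that handles β-tubulin, had a log2 fold change of -0.83, the CCT subunit TCP1 -0.56 and the prefoldin subunit PFDN2 -0.50. The median of the list was -0.31, against -0.11 for all genes. TTC5, the reader of the nascent tubulin chain, was not called, at 13.8 ± 2.59 TPM in DMSO against 10.9 ± 1.01 TPM under MS023 (SD, n = 3), nor was its partner SCAPER.

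Of 9 genes of the γ-tubulin ring complex and its partners 4 were called lower, with TUBGCP4 at -0.72, MZT1 at -0.65 and TUBGCP2 at -0.54, and 0 were called higher, against 19.3% and 11.6% of all genes tested. Without the fold threshold 6 were lower and 0 higher, against 3922 and 2378 of all 12903 genes tested. Of 21 genes for proteins that bind the polymer 4 were called lower, a share near that of all genes tested (19.3%), and 0 were called higher. Without the fold threshold 7 were lower and 3 higher, shares near those of all genes tested (3922 and 2378 of 12903). CKAP5, the microtubule polymerase of the plus end, fell by 1.07 on the log2 scale, from 56.3 ± 3.30 to 26.3 ± 2.42 TPM (SD, n = 3 each), the minus end protein CAMSAP1 by 0.90 and the plus end protein CLASP2 by 0.69. The median of this list, -0.04, was above that of all genes.

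Tubulin is also modified after assembly. Of 16 tested genes of this group 4 were called lower and 2 higher, shares near those of all genes tested (19.3% and 11.6%). The tubulin deacetylase SIRT2 rose from 34.3 ± 2.23 to 63.8 ± 2.23 TPM (SD, n = 3 each), and VASH2, which removes the C-terminal tyrosine of α-tubulin, had a log2 fold change of 0.74. SVBP, the small protein that VASH2 needs, fell by 0.85, and TTLL12 and TTLL5 of the tubulin tyrosine ligase-like family fell by 0.69 each. In PRMT1-KO the one called gene of all these lists was MAP7, which binds along microtubules, with a log2 fold change of 0.55 (limma, Benjamini-Hochberg adjusted p = 0.0296). MAP7 was low, with means of 0.863 TPM in isgCtrl and 1.72 TPM in PRMT1-KO. Its isgCtrl mean of 0.898 on the log2 scale was under the filter of 1, so it was tested only through its PRMT1-KO level.

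Genes with the most similar profile were taken as those with the smallest root mean square difference from a member over the 12 samples, after centring log2(TPM+1), among 13256 genes. For STMN1 these were HMGB1 (0.058), DCST1-AS1 (0.066), CEP55 (0.075), FBXO5 (0.083) and FAM83D (0.087). For TPPP they were CSE1L (0.074), TMEM106C (0.096), NCAPG (0.101), TOP2A (0.104) and TMX4 (0.105). For TUBA1B they were LAMP5 (0.035), SRSF7 (0.042), MATR3 (0.044), BRIX1 (0.048) and SRSF11 (0.055). The DNA topoisomerase TOP2A, near to TPPP by this measure, is also one of the 6 proliferation markers. This is a description over 12 samples that share 4 conditions.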

How the data were processed

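RNA-seq of 12 JJN3 samples was analysed from gene-level values that the authors deposited as log2(TPM+1). By the study's methods and the submitters' processing notes, reads were checked with FastQC, trimmed with Trimmomatic, aligned with STAR to hg38 and quantified with Salmon on GENCODE V35. These values hold no read counts, so depth is unknown and no count model was used.

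Groups came from the labels. Genes with a mean above 1 on the log2 scale in a compared group were fitted in limma 3.58.1 (R 4.3.3, eBayes without trend), with Benjamini-Hochberg adjustment over all genes fitted. Calls needed an adjusted p below 0.05 and a log2 fold change beyond 0.48 in either direction. Each comparison used its own 6 samples, and the difference of effects used all 12. Sums, ratios and shares were made from 2 to the power of the value, minus 1, and tested by two-sided exact permutation (scipy 1.17.1). The code was tested on simulated data.

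The members and lists were chosen with earlier results of these data known. All 10 members were named. From other lists, at most 3 called genes per direction were named, with genes that bear on a member. Gene positions, overlaps and coding starts came from GENCODE v44, and promoter windows from RefSeq (GRCh38.p14), with all 10 members matched in both. Alternatives were other filters, eBayes with trend, median-ratio and quantile scaling, 0.1 as pseudocount, one fit of 12 samples, the replicate block, no fold threshold, wider tubulin sums and each replicate left out.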

Additional observations from a re-analysis of the deposited data

Results flagged for a closer look

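For 7 members the effect of MS023 and the effect of PRMT1-KO differed by a test of the difference itself, in a limma fit of 12 samples with Benjamini-Hochberg adjustment over all genes. The difference, MS023 effect minus PRMT1-KO effect, was -1.57 for STMN1, -1.40 for TPPP, -0.81 for TUBB, -0.64 for TUBA1B and -0.48 for TUBA4A on the log2 scale. It was 0.64 for TUBA1A and 0.60 for TUBB2A. Of all 13256 genes tested, 24.4% were called by the same test. The calls of TUBA4A, TUBA1A and TUBB2A lay near the thresholds and were kept in 10, 12 and 10 of 19 alternatives. Groups of 3 samples were too small to single out outlying samples.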

How the results depend on the processing

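The calls of TUBA1A, TUBA1B, TUBB, STMN1 and TPPP with MS023 were kept, in their direction, in all 15 alternatives, and the number of members called lower was within 1.5 times of 5 in each. The number called higher was 1 to 2 when single replicates were left out, with the value of 1 without MS023 replicate 1. For the difference of effects, TUBA1B, TUBB, STMN1 and TPPP kept their calls in all 19 alternatives, and the number of members called higher was 0 without a filter on low values, 1 with the replicate block and 0 to 2 with single replicates left out. It was 0 without DMSO replicate 1, MS023 replicate 1, isgCtrl replicate 1 or 2, or PRMT1-KO replicate 2. TUBA4A kept that call in 10 of 19 alternatives, TUBA1A in 12 and TUBB2A in 10. In PRMT1-KO 0 members were called in any of 15 alternatives, and the signs of small differences turned. Under median-ratio scaling the log2 difference was 0.00157 for TUBA4A, 0.00305 for TUBB and 0.0135 for TUBB4B. With single replicates left out it was -0.23 to 0.0035 for TUBA1A, -0.074 to 0.0061 for TUBA4A, -0.18 to 0.031 for TUBB2A and -0.13 to 0.12 for TUBB6. For TUBB6 it was -0.25 to 0.038 with MS023 and -0.24 to 0.078 for the difference of effects. Summed α-tubulin with MS023 was at -0.436 under median-ratio scaling and -0.591 under quantile normalization, and summed β-tubulin at -0.581 under median-ratio scaling. In PRMT1-KO summed α-tubulin was at -0.012 and -0.024 under these settings, and summed β-tubulin at 0.005 and -0.061. Where it was not the number of samples or genes that changed, the cause was not tested. For DMSO and MS023 the r of deviations was 0.03 to 0.122 between same-numbered replicates and -0.119 to 0.043 between different-numbered ones. For isgCtrl and PRMT1-KO it was -0.148 to 0.077 and -0.093 to 0.166. The labels give only a number, and whether DMSO and MS023 samples were weakly paired was not tested. The replicate block took calls over all genes in PRMT1-KO from 96 to 0 and with MS023 from 3986 to 4018, and it changed no member's call in either comparison. All-gene calls in PRMT1-KO were 2 to 21 with single replicates left out and 48 without a filter.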

Other observations

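The plasma cell markers listed to check the cell type also differed with MS023. Of 6 genes 3 were called higher and 0 lower, where 11.6% of all genes tested were called higher (2012 of 12949 under median-ratio scaling). At an adjusted p under 0.05 in limma without the fold threshold 4 were higher, against 2378 of all 12903 genes tested. XBP1, the transcription factor of the secretory programme, went from 224 ± 4.51 TPM in DMSO to 496 ± 4.56 TPM with MS023 (SD, n = 3 each), and PRDM1, which drives plasma cell differentiation, had a log2 fold change of 0.60. SLAMF7, a surface receptor of plasma cells, was at 9.32 ± 0.65 TPM in DMSO and 52.2 ± 3.59 TPM with MS023, but at 0.369 ± 0.195 TPM in isgCtrl and 0.463 ± 0.177 TPM in PRMT1-KO. The DMSO and isgCtrl cells thus differed in SLAMF7 before any comparison with the inhibitor or the PRMT1 guide. In PRMT1-KO 0 of the 5 plasma cell markers tested were called in limma with Benjamini-Hochberg adjustment, with 0 at an unadjusted p under 0.05. Of all 12285 genes tested there, 0.781% were called and 18.6% had an unadjusted limma p under 0.05.

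Of the genes annotated on the opposite strand of a member, AFG3L2, a mitochondrial protease gene that shares 837 exonic bases with TUBB6, fell by 0.97 on the log2 scale with MS023. STK16, which shares 628 exonic bases with TUBA4A, had a log2 fold change of 0.18 and was not called. These genes were chosen for their position. Levels are not given here for others on the opposite strand. They include TUBA1B-AS1, which shares 1571 exonic bases with TUBA1B, and ENSG00000258232, which shares 666 with TUBA1C.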
